A study of Homo sapiens with 6 samples.

Results

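Antisense RNAs are transcribed from the strand opposite a protein-coding gene, here called the sense gene, and their symbols are built from the sense symbol followed by -AS and a digit. The 108 antisense RNAs described here were chosen by their FPKM (the number of fragments scaled by the transcript length and by the mapped fragments of the library), of which 101 reached 1 FPKM, summed over their transcripts, in at least 1 MDA-MB-231 library. The other 7 entered through the HMLER table alone, which lists 19 antisense RNAs, 12 of them also among the 101. The MDA-MB-231 file holds 419 antisense symbols among 23617 symbols, and 12525 symbols reached 1 FPKM. Of the 318 antisense symbols under that minimum, 121 were listed at 0 in both libraries. Each antisense RNA is set beside the gene named by the part of its symbol before -AS. No such symbol was found for 4 of them (C17orf76-AS1, HOXB-AS3, HOXC-AS5 and HOXD-AS1), the last 3 of which are named after a HOX cluster and not after a gene.

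The study asked what treatment with DAC (5-aza-2′-deoxycytidine, decitabine) does to gene expression in breast cells. DAC is a cytidine analog that is built into DNA and traps the DNA methyltransferases, so that methylation is lost as cells divide. MDA-MB-231 is a line from a human breast cancer, and HMLER is a human mammary epithelial line transformed in vitro with defined genes. Cells of each line were left untreated or received 10 µM DAC daily and were collected at 72 h. Polyadenylated RNA was sequenced in 6 libraries, 1 of each condition for MDA-MB-231 and 2 of each condition for HMLER, each made from pooled extractions. The HMLER libraries were merged by the authors into 1 value per condition. The HMLER table holds only transcripts that were over 2-fold higher after DAC (lowest ratio 2.001), and its lowest DAC value is 1.003 FPKM. Antisense RNAs that were steady or lower in HMLER, or that stayed under that value after DAC, were thus not analysed here. The cell line field of the untreated MDA-MB-231 library carries another number (MDA-MB-232), while its title gives MDA-MB-231. With 1 library or 1 merged value per condition there is no replicate check, no test was run, and every difference below is a description of these libraries.

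In MDA-MB-231, the mesenchymal marker VIM stood at 3066 FPKM untreated and 1134 FPKM after DAC and CD44 at 212 and 139, while the hormone receptors ESR1 and PGR and the leukocyte and endothelial markers PTPRC and PECAM1 were all at 0.156 FPKM or lower. The keratins KRT5 and KRT14 were at 0.0495 FPKM or lower in MDA-MB-231 and are listed in the HMLER table. Over all transcripts the FPKM added up to 589238 untreated and 480455 with DAC, and symbols that met 1 FPKM in both libraries had a median DAC/untreated ratio of 0.912, or -0.13 on the log2 scale.

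Many antisense RNAs start beside the promoter of the sense gene and run away from it, so that 1 CpG-rich region can serve both. Others start further inside or beyond the sense gene and run over its 3′ or 5′ end. The term covers RNAs with very different known behaviour: some act on their neighbour or in trans, some host small nucleolar RNAs, and for most no function is known. A CpG-rich promoter is usually kept free of methylation, and when it is methylated its RNA is usually silent.

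The 200 bases around the start of 6 antisense RNAs are printed to show the range of CpG content that goes with different readings after DAC. They run from 150 bases before to 50 bases after the 5′ end of the GENCODE canonical transcript, on the strand of the antisense RNA, in GRCh37, the assembly that hg19 names, and capitals mark each CG. CG reads the same on both strands. ZNF582-AS1 and BOLA3-AS1 were higher in MDA-MB-231, PROSER2-AS1 and HHIP-AS1 were higher in both lines, UNC5B-AS1 was higher in HMLER and listed at 0 in MDA-MB-231, and OIP5-AS1 was within 2-fold in MDA-MB-231 and is not in the HMLER table.
ZNF582-AS1, chr19:56904937-56905136, plus strand: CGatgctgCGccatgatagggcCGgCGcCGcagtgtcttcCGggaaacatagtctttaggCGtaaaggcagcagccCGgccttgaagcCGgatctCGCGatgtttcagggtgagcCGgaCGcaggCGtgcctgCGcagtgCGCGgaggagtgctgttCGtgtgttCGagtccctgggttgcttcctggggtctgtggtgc
BOLA3-AS1, chr2:74375056-74375255, plus strand: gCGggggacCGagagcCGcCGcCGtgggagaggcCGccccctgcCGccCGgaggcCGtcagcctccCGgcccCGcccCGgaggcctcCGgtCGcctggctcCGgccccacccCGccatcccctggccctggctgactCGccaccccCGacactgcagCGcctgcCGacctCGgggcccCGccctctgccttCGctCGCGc
PROSER2-AS1, chr10:11936650-11936849, minus strand: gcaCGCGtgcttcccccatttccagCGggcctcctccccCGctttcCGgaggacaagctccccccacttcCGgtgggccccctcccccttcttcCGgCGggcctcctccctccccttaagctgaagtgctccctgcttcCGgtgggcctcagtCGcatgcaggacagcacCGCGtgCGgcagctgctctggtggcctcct
HHIP-AS1, chr4:145582460-145582659, minus strand: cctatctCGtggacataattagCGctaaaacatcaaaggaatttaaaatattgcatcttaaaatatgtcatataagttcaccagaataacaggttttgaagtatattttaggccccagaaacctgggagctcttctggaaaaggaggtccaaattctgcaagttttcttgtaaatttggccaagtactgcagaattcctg
UNC5B-AS1, chr10:72978002-72978201, minus strand: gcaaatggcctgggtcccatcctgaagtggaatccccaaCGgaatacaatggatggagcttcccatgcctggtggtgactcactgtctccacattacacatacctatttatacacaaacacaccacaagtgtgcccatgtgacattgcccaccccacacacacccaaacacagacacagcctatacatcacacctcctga
OIP5-AS1, chr15:41576045-41576244, plus strand: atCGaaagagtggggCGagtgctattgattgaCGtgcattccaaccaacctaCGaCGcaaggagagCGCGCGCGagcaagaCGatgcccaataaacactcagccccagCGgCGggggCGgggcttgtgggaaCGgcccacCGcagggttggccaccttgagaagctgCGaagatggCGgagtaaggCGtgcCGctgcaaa

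The windows of ZNF582-AS1 and OIP5-AS1 held 19 CG sites each, and that of BOLA3-AS1 held 25. PROSER2-AS1 had 13, HHIP-AS1 had 2 and UNC5B-AS1 had 1. Over the same 200 bases, all 28 antisense RNAs that were higher in MDA-MB-231 held at least 1 CG, as did 99.6% of the 11869 symbols with a placed start. At least 10 were held by 21 of those 28 (75%), by 12 of the 19 in the HMLER table (63.2%) and by 89.4% of the 11869 symbols. Among all 104 placed antisense RNAs, 75 (72.1%) held at least 10, near the share of the 28. The ZNF582-AS1 and OIP5-AS1 windows were thus equally rich in CG while their readings after DAC differed. HHIP-AS1 was higher in both lines with few CG sites at its canonical start. FPKM are of RefSeq transcripts, whose starts were not compared with the GENCODE canonical starts shown here and may differ from them.

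Of the 101 antisense RNAs at 1 FPKM or more in MDA-MB-231, 28 (27.7%) were more than 2-fold higher after DAC, 2 (1.98%) more than 2-fold lower and 71 within 2-fold. Among all 12525 symbols at that minimum, 10.8% were higher and 4.82% lower. The DAC value was above the untreated value for 69 of the 101 antisense RNAs (68.3%) and for 43.1% of all symbols. The median log2((DAC + 1)/(untreated + 1)) was 0.24 for the antisense RNAs and -0.08 for all symbols. Since the FPKM minimum could be met in either library, an antisense RNA that met it after DAC alone had to differ between the libraries. This was so for 19 of the 101, and 3 met it in the untreated library alone. Of the 79 that met it in both, 10 (12.7%) were higher, against 4.37% of all symbols that met it in both.

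The level of a symbol moved with the share that was higher. The antisense RNAs had a median mean level of 2.47 FPKM and all symbols 12.4 FPKM. Among those with a mean of the 2 libraries under 5 FPKM, 26 of 73 antisense RNAs (35.6%) were higher, against 28.7% of the 3527 symbols at that level. Among those at 5 FPKM or more, 2 of 28 antisense RNAs (7.14%) were higher, HOXD-AS1 and RSBN1L-AS1, against 3.76% of 8998 symbols. Within a level, the antisense RNAs thus stood nearer to the other symbols than without regard to it, and the part of level in the shares was not tested.

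**Figure D1:**
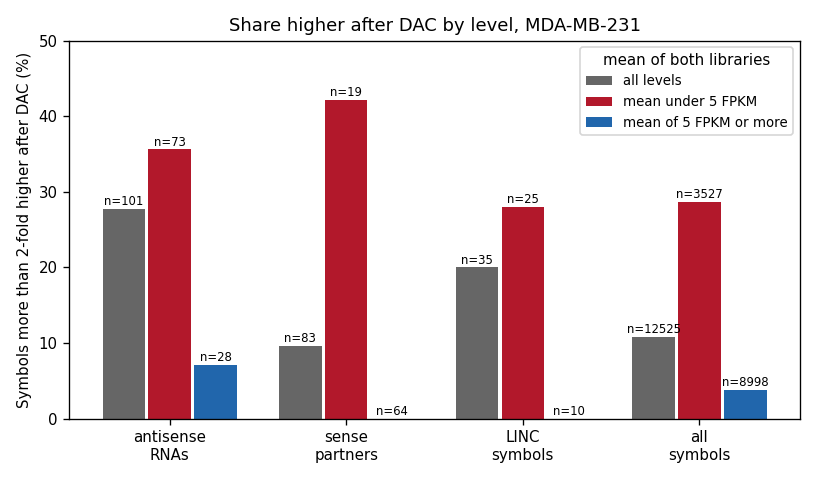
Percent of symbols more than 2-fold higher after DAC in MDA-MB-231 (vertical axis) for antisense RNAs, their sense partners, LINC symbols and all symbols, with 1 library per condition and the number of symbols above each bar. Grey bars give all levels, red bars symbols with a mean of both libraries under 5 FPKM and blue bars those at 5 FPKM or more. Among antisense RNAs the share was 35.6% under 5 FPKM and 7.14% above it, and among all symbols 28.7% and 3.76%.

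The precision of single values was low. Low FPKM values fall on whole multiples of what 1 fragment is worth, which was 0.0232 FPKM in the untreated and 0.0233 FPKM in the DAC library for an effective length of 1 kilobase, and 100% of the low values used lay within 0.1 of a whole fragment. On this scale the 28 higher antisense RNAs rested on 0 to 745 fragments in the untreated library (median 44) and 26 to 1824 in the DAC library (median 112), estimates that cover counting error only. The file also gives the lower and upper bounds of Cuffdiff, the program that made the values, for each transcript. These overlapped between the libraries for the main transcript of every one of the 28. Bounds lay apart for 118 of the 1350 higher symbols, or 0.942% of all symbols. Among symbols with a mean under 5 FPKM they lay apart for 68 of 1012 higher ones. Strand is a further limit. The labels name a TruSeq RNA kit without saying that strand was kept, and without strand the reads of an antisense RNA and of its sense gene cannot be told apart where their exons overlap.

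On the log2 scale with 1 FPKM added to each value, the largest difference among the 28 was that of PROSER2-AS1 (chr10:11891607-11936699, minus strand), a noncoding RNA of 6 exons that runs over the 3′ end of PROSER2. It had 0.477 FPKM untreated and 6.51 FPKM after DAC in MDA-MB-231, a ratio of 13.7, on about 60 and 814 fragments. In HMLER it had 0.0467 FPKM untreated and 15.2 FPKM after DAC. PROSER2 itself was lower after DAC in MDA-MB-231, with 26.6 and 16.8 FPKM, and higher in HMLER, with 4.55 and 10.5 FPKM. The pair thus differed in opposite directions in MDA-MB-231, where PROSER2 was within 2-fold. In HMLER both are higher by the making of the table, so that their shared direction there is not a finding. Only 0.985% of the antisense exon bases lay in exons of PROSER2.

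BOLA3-AS1 (chr2:74375134-74379079, plus strand) starts 167 bases from the start of BOLA3, a gene of mitochondrial iron-sulfur cluster assembly, and points away from it. It was at 1.12 FPKM untreated and 6.63 FPKM after DAC, a ratio of 5.94. BOLA3 was much more abundant and hardly differed, with 197 and 194 FPKM. None of the exon bases of its GENCODE canonical transcript lay in annotated exons of the sense gene. The FPKM of BOLA3-AS1 was summed over 3 RefSeq transcripts, and the part of BOLA3 reads in it was not tested. SGOL1-AS1 (chr3:20215736-21187459, plus strand), which starts 149 bases from an annotated sense start, was at 0.357 and 3.16 FPKM on about 9 and 78 fragments. Its partner SGOL1, which encodes shugoshin, the protector of centromeric cohesion, was lower, with 21.3 and 15.1 FPKM.

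ST8SIA6-AS1 lies within the sialyltransferase gene ST8SIA6 and was listed at 0 in the untreated library and at 1.94 FPKM after DAC, on about 26 fragments. Against a floor of 3 counts in the untreated library, which is 0.224 FPKM, its ratio was 8.67. That ratio takes the estimate of 26 fragments as exact and is no lower limit. Its bounds overlapped, from 0 to 0.0845 FPKM untreated and from 0 to 5.36 FPKM after DAC. ST8SIA6 was near 0 in both libraries, at 0.0393 and 0.0989 FPKM. HOXD-AS1, renamed HAGLR, lies in the HOXD cluster and was the most abundant of the 28 after DAC. It had 4.85 FPKM untreated and 11.9 FPKM after DAC, on about 745 and 1824 fragments, the largest numbers among the 28. Its bounds overlapped narrowly, from 1.73 to 7.96 FPKM untreated and from 5.69 to 18.2 FPKM after DAC.

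Among the other large differences, ARHGAP5-AS1 had 1.002 and 3.22 FPKM beside ARHGAP5, a GTPase-activating protein, at 9.40 and 8.40 FPKM. PRKCQ-AS1 had 1.504 and 4.23 FPKM, while PRKCQ, the theta isoform of protein kinase C, was under 1 FPKM in both libraries (0.0535 and 0.369). RAB11B-AS1 had 0.455 and 1.84 FPKM beside RAB11B, a GTPase of recycling endosomes, at 57.5 and 55.0 FPKM. In all 3 pairs the antisense RNA starts within 1 kilobase of an annotated sense start. PRKCQ-AS1 shares no exon base with PRKCQ, while ARHGAP5-AS1 and RAB11B-AS1 start inside the sense gene and run back over its 5′ end, with 16.5% and 14.2% of their exon bases in its exons.

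**Figure D2:**
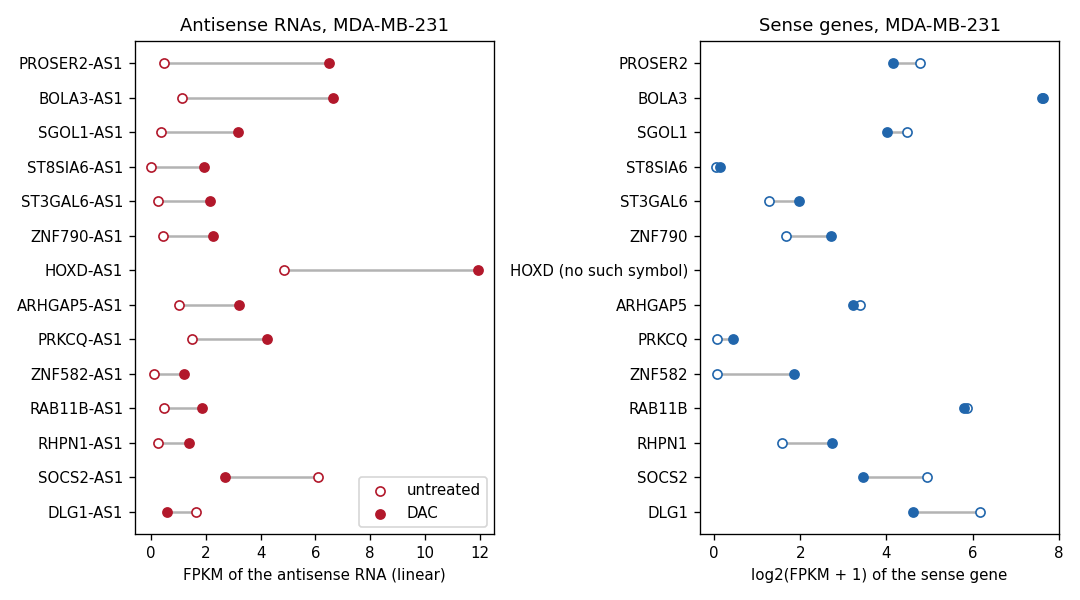
FPKM of the 12 antisense RNAs with the largest upward difference and of the 2 that were more than 2-fold lower (left, linear axis) and log2(FPKM + 1) of their sense genes (right), MDA-MB-231, 1 library per condition. Open points are untreated and filled points DAC. PROSER2-AS1 went from 0.477 to 6.51 FPKM and BOLA3-AS1 from 1.12 to 6.63, while PROSER2 and BOLA3 were lower or hardly differed.

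Both members of a pair reached 1 FPKM in 83 pairs. The antisense RNA was higher and the sense gene within 2-fold in 16 of them, both were higher in 5, both were lower in 2, and no pair was past 2-fold in opposite directions. The sense gene alone was higher in 3 pairs and lower in 7, and neither was past 2-fold in 50. Of the 28 higher antisense RNAs, the remaining 7 had no sense symbol in the file (1) or a sense gene under 1 FPKM (6). Sense genes of these 83 pairs were higher in 9.64% and lower in 10.8%, against the 10.8% and 4.82% of all symbols. Their median mean level was 18.2 FPKM. With a mean under 5 FPKM, 8 of 19 sense genes (42.1%) were higher, against 28.7% of all symbols at that level. At 5 FPKM or more it was 0 of 64, against 3.76%. Beside the 21 higher antisense RNAs of these pairs the median ratio of the sense gene was 0.914, and beside the 60 antisense RNAs within 2-fold it was 0.852.

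Without regard to size, the antisense RNA had a higher and the sense gene a lower DAC value in 37 of the 83 pairs, both had a higher value in 16, both a lower value in 22 and the reverse held in 8. The ratio of antisense to sense FPKM was greater after DAC in 64 pairs and smaller in 19, and it differed by more than 2-fold in 31 and 4 of these, respectively. Level differs within pairs, with a median of 2.47 FPKM for the 101 antisense RNAs and 18.2 FPKM for the sense genes. Among all symbols the DAC value was the higher one in 63.8% of those under 5 FPKM and in 35.0% of those at 5 FPKM or more. The FPKM minimum could be met in either library, so a member that met it after DAC alone had a higher DAC value by construction. Of the 101 antisense RNAs, 19 met it after DAC alone and 3 in the untreated library alone. The parts of level and of this minimum in these pair counts were not tested. The sense gene was the more abundant member, on the per-length FPKM scale, in all but 12 pairs untreated and in all but 14 after DAC. Over the 83 pairs, the log2 changes of antisense and sense were weakly correlated (Pearson's r 0.26, Spearman's rank correlation 0.22). All points come from the same 2 libraries, and without strand some reads may be shared within a pair, so this is a description only.

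**Figure D3:**
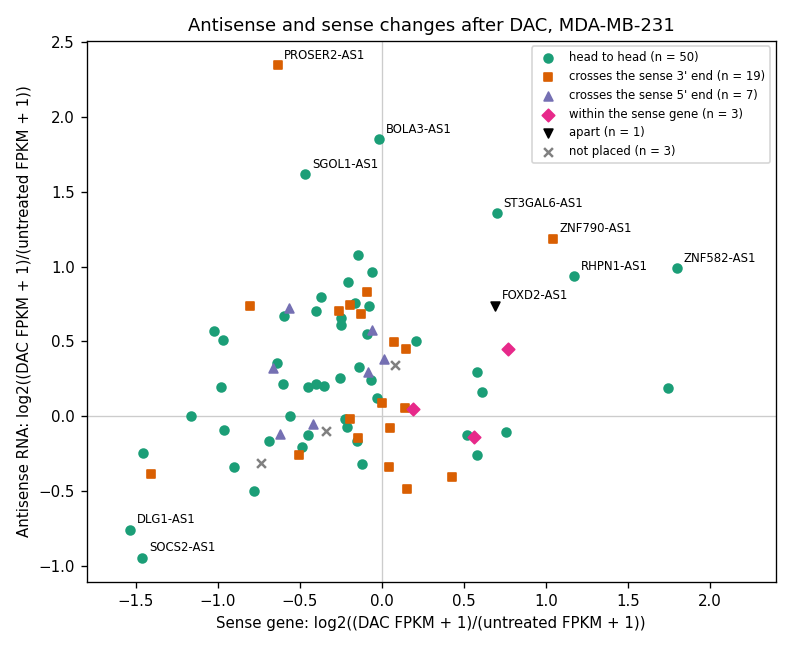
Log2((DAC FPKM + 1)/(untreated FPKM + 1)) of the antisense RNA (vertical axis) against that of its sense gene (horizontal axis) for the 83 pairs at 1 FPKM or more, MDA-MB-231. Symbols give the annotated arrangement of the pair, with the number of pairs in the key. PROSER2-AS1, BOLA3-AS1 and SGOL1-AS1 stand highest with sense changes at or under 0, and SOCS2-AS1 and DLG1-AS1 lie at the lower left with their sense genes.

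In 5 pairs both members were more than 2-fold higher. This count rests on low values: it was 0 when 1 FPKM was asked of both libraries or when bounds had to lie apart, and 1 when 1 FPKM was added to each value. ZNF582-AS1 (chr19:56905025-56910541, plus strand) was at 0.112 FPKM untreated and 1.21 FPKM after DAC, on about 7 and 63 fragments. Its partner ZNF582, which encodes a KRAB zinc finger protein, starts 180 bases away on the other strand and was at 0.0448 and 2.63 FPKM, on about 4 and 232 fragments. Both members were thus near 0 without DAC and over 1 FPKM with it, and they share no exon bases. ZNF790-AS1 had 0.437 and 2.27 FPKM and ZNF790, also a zinc finger gene, 2.19 and 5.56 FPKM. That pair is not divergent, since ZNF790-AS1 starts 40511 bases from the sense start and runs over its 3′ end.

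ST3GAL6-AS1 was at 0.232 and 2.16 FPKM, on about 5 and 49 fragments, and the sialyltransferase gene ST3GAL6 at 1.44 and 2.96 FPKM. RHPN1-AS1 was at 0.246 and 1.38 FPKM beside RHPN1 at 1.98 and 5.70 FPKM. FOXD2-AS1 was at 1.60 and 3.33 FPKM and the forkhead factor gene FOXD2 at 0.488 and 1.40 FPKM, their starts 3403 bases apart and their genes not overlapping. Of these 5 antisense RNAs, 4 shared no exon base with the sense gene, and ST3GAL6-AS1 shared 6.24% of its exon bases.

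The 2 antisense RNAs that were more than 2-fold lower were lower together with their sense genes. With 1 FPKM asked of both libraries 1 of these pairs was left, and with 1 FPKM added to each value 0. DLG1-AS1 was at 1.65 and 0.563 FPKM, a DAC/untreated ratio of 0.342, and the scaffold protein gene DLG1 at 70.5 and 23.6 FPKM, a ratio of 0.335. SOCS2-AS1 was at 6.09 and 2.68 FPKM, a ratio of 0.440, and SOCS2, a suppressor of cytokine signalling, at 29.5 and 10.1 FPKM, a ratio of 0.342. Both antisense RNAs start within 1 kilobase of an annotated sense start, with 14.2% and 9.63% of their exon bases in exons of the sense gene. In HMLER, SOCS2 was listed as higher, with 0.981 and 4.36 FPKM, and SOCS2-AS1 is not in that table.

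In 7 pairs the sense gene was lower and the antisense RNA was not past 2-fold. ZEB1, a transcriptional repressor of epithelial genes, was at 31.1 and 15.2 FPKM, while ZEB1-AS1, with no exon base in ZEB1 exons, was at 3.87 and 4.58 FPKM. SH3RF3 had the lowest ratio (0.275), with 7.16 and 1.97 FPKM, beside SH3RF3-AS1 at 3.15 and 2.50 FPKM. PTPRG, a receptor tyrosine phosphatase, was at 45.1 and 16.4 FPKM and PTPRG-AS1 at 6.69 and 4.87 FPKM. IDH1, the cytosolic isocitrate dehydrogenase, was at 30.1 and 12.9 FPKM and IDH1-AS1 at 1.06 and 1.07 FPKM. The others were CIRBP, FOXN3 and LPP. The sense gene alone was higher in the pairs of SDCBP2, PRRT3 and THAP9, and SDCBP2 was listed at 0 untreated and at 2.35 FPKM after DAC beside SDCBP2-AS1 at 1.67 and 2.05 FPKM.

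The most abundant antisense RNAs were all within 2-fold. C17orf76-AS1, renamed SNHG29 and a host of small nucleolar RNAs, was at 1035 FPKM untreated and 599 FPKM after DAC. It was the largest single part of the summed level of the 101 antisense RNAs, which was 1627 and 1257 FPKM with it and 592 and 658 FPKM without it, so that the direction of the sum turned with this 1 member. FGD5-AS1 was at 90.2 and 93.4 FPKM while its partner FGD5 was near 0 (0.00412 and 0.0290 FPKM), which makes it an antisense RNA with almost no sense RNA in these cells. TAPT1-AS1 was at 45.4 and 36.3 FPKM, PITPNA-AS1 at 30.9 and 29.2 and THAP9-AS1 at 24.97 and 22.8.

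PCNA-AS1 was at 78.4 and 73.0 FPKM and PCNA, the sliding clamp of DNA replication, at 139 and 110 FPKM. PCNA-AS1 and FBXO22-AS1, at 28.1 and 35.9 FPKM, could not be placed on the annotation, so that their exon overlap was not computed. OIP5-AS1, also known as Cyrano, was at 22.3 and 16.6 FPKM, while OIP5, a centromere factor, was at 24.8 and 33.7 FPKM. SERTAD4-AS1, the last of the 10 by level, was at 11.8 and 18.2 FPKM. Both HOXD-AS1 and RSBN1L-AS1, the higher members at 5 FPKM or more, were below all 10 of these in level.

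Of the 101, 94 could be placed beside their sense gene on the GRCh37 annotation. Head to head pairs, with the antisense start within 1 kilobase of an annotated sense start, were the most frequent arrangement. This class was assigned first, and the start of any annotated sense transcript counted. It thus holds some antisense RNAs that lie wholly within the sense gene, such as ZSWIM8-AS1. The other classes hold only what was left. Of these 53, 15 (28.3%) were higher and 2 lower. Among the 24 that ran over the 3′ end of the sense gene 7 (29.2%) were higher, among the 9 that ran over its 5′ end 2 (22.2%), and among the 7 within the sense gene 2 (28.6%). The share that was higher thus lay between 22.2% and 29.2% over these 4 arrangements, and a difference between them was not tested. In the current RefSeq table (GRCh38.p14, used for names only) 21 of the 108 carry another symbol, 9 of them ending in -DT for divergent transcript. Of those 9, 3 were higher: BOLA3-AS1, CSTF3-AS1 and ZNF582-AS1.

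The overlap of exons bears on which reads can be assigned to an antisense RNA. Here and above it was computed for the GENCODE canonical transcript of each antisense RNA, while FPKM are of RefSeq transcripts. No exon base lay in exons of the sense gene for 34 antisense RNAs, of which 11 (32.4%) were higher. Some overlap was present for 60, of which 16 (26.7%) were higher and 2 lower. At least 50% of the exon bases were shared in 9, of which 2 were higher, C1QTNF9B-AS1 and LIMD1-AS1. The former was at 2.42 and 5.21 FPKM with C1QTNF9B at or near 0, and the latter at 0.374 and 1.30 FPKM with LIMD1 at 19.5 and 16.9 FPKM. A difference between these shares was not tested, nor was the part of shared reads in the values. DHRS4-AS1, at 1.71 and 3.49 FPKM, lies beside DHRS4, which has similar copies in the genome, and how reads were split among these was not tested.

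In HMLER, the 19 antisense RNAs made up 1.02% of the 1854 symbols in the table, and in MDA-MB-231 the 101 made up 0.806% of the symbols at 1 FPKM. These shares are of unlike sets, since the table holds only higher symbols. Among the 1350 higher symbols of MDA-MB-231, 28 were antisense RNAs. Since the table was restricted to transcripts that were higher, the direction is not a finding. Its lowest DAC value was 1.003 FPKM, so that lower levels after DAC are also missing by the making of the table. The median of the 19 was 0.999 FPKM untreated and 4.06 FPKM after DAC. The median ratio was 2.78, and 3.62 over all symbols of the table. Untreated values were under 1 FPKM for 10 of the 19. The number of fragments behind HMLER values is not known, so no fold is given for the lowest of them.

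The most abundant was UGDH-AS1, which starts beside UGDH, the gene of UDP-glucose dehydrogenase, and had 13.4 and 35.3 FPKM in HMLER. In MDA-MB-231 it was at 0.170 and 0.1196 FPKM. TLR8-AS1, beside the RNA sensor gene TLR8 on chromosome X, had 7.28 and 20.7 FPKM in HMLER and was listed at 0 in both MDA-MB-231 libraries, as was TLR8. UNC5B-AS1 lies within the gene of the netrin receptor UNC5B and had 0.787 and 8.65 FPKM in HMLER, and it too was listed at 0 in MDA-MB-231. FLI1-AS1, renamed SENCR and lying within the ETS factor gene FLI1, had 1.27 and 9.41 FPKM in HMLER and 0 and 0.129 FPKM in MDA-MB-231. HOXC-AS5, of the HOXC cluster, had 0.817 and 3.63 FPKM in HMLER and at most 1 fragment in MDA-MB-231. These 5 were thus abundant or appeared in HMLER and were at or near 0 in MDA-MB-231 with or without DAC.

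Of the 19, 6 were also more than 2-fold higher in MDA-MB-231, 6 were within 2-fold and 7 were under 1 FPKM there, and none was lower. The 6 higher in both lines were ARHGAP5-AS1, HHIP-AS1, PRKCQ-AS1, PROSER2-AS1, RSBN1L-AS1 and ST3GAL6-AS1. HHIP-AS1 had 3.09 and 7.09 FPKM in HMLER and 0.986 and 2.39 FPKM in MDA-MB-231. RSBN1L-AS1, renamed APTR, had 4.13 and 11.3 FPKM in HMLER and 3.57 and 7.54 FPKM in MDA-MB-231. ST3GAL6-AS1 had 0.456 and 2.23 FPKM in HMLER, ARHGAP5-AS1 1.37 and 3.23, and PRKCQ-AS1 1.32 and 2.65. These 6 were 6 of the 28 antisense RNAs higher in MDA-MB-231 (6 of 19 of the HMLER list). The HMLER table listed 459 of all 1350 symbols with a higher call in MDA-MB-231.

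Among those within 2-fold in MDA-MB-231, LBX2-AS1, beside a homeobox gene, had 0.638 and 4.06 FPKM in HMLER and 5.09 and 7.61 FPKM in MDA-MB-231. NOP14-AS1 had 1.78 and 4.56 FPKM in HMLER and 5.54 and 5.95 FPKM in MDA-MB-231, and HOXB-AS3 had 1.39 and 4.14 against 2.52 and 3.06 FPKM. ATP6V0E2-AS1 (0.626 and 1.44 FPKM in HMLER), MORC2-AS1 (0.618 and 1.72) and FOXN3-AS1 (0.170 and 1.37) had a lower DAC than untreated value in MDA-MB-231. RASAL2-AS1 had 0.999 and 2.64 FPKM in HMLER and 0.241 and 0.733 FPKM in MDA-MB-231, under the minimum.

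The sense gene was in the HMLER table beside 4 of the 19, PROSER2, HHIP, FOXN3 and RAMP2. HHIP, which binds and sequesters hedgehog ligands, had 4.02 and 8.36 FPKM in HMLER, near the values of HHIP-AS1. FOXN3, a forkhead repressor, had 0.615 and 1.36 FPKM. RAMP2, a partner of the calcitonin receptor-like receptor, had 0.933 and 4.99 FPKM, and RAMP2-AS1 0.588 and 1.22 FPKM. In MDA-MB-231 that pair had 0 and 1.74 FPKM for RAMP2 and 0.0154 and 0.719 FPKM for RAMP2-AS1. Both members were thus near 0 without DAC in that line. RAMP2-AS1 starts 1 base from an annotated RAMP2 start. For 6 further antisense RNAs only the sense gene was in the HMLER table, among them MYLK (4.94 and 14.2 FPKM) and ZNF790 (0.331 and 1.05 FPKM), whose antisense RNAs were higher in MDA-MB-231.

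**Figure D4:**
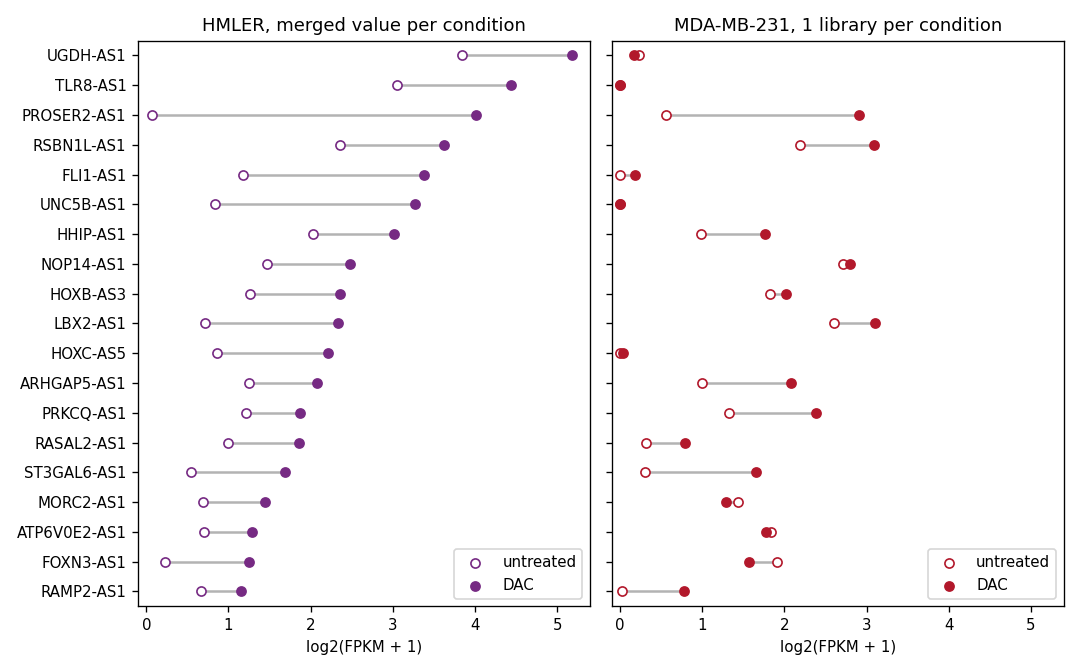
Log2(FPKM + 1) of the 19 antisense RNAs of the HMLER table in HMLER (left) and MDA-MB-231 (right), with open points for untreated and filled points for DAC. The HMLER values are merged over 2 libraries per condition and the MDA-MB-231 values come from 1 library each. All 19 are higher in HMLER by the making of the table, and in MDA-MB-231 13 have a higher DAC value.

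The CpG observed/expected ratio within 500 bases of the annotated 5′ end on either side, a sequence measure that the choice of members did not use, had a median of 0.79 for the 28 higher antisense RNAs and 0.73 for the 67 within 2-fold that had a placed start. For all symbols at 1 FPKM the median was 0.79, and for all symbols that were higher it was 0.71. The quartiles overlapped throughout, at 0.64 to 0.88 for the higher antisense RNAs and 0.58 to 0.90 for those within 2-fold. The 19 of the HMLER table had a median of 0.71 and a first quartile of 0.30. CpG-poor starts were present among them: FLI1-AS1 at 0.15, HHIP-AS1 at 0.21, ATP6V0E2-AS1 at 0.24, HOXB-AS3 at 0.26 and UNC5B-AS1 at 0.27. Higher antisense RNAs were thus found with both CpG-rich and CpG-poor GENCODE canonical starts, which may differ from the starts of the RefSeq transcripts measured. Methylation at these starts was not measured in these files.

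**Figure D5:**
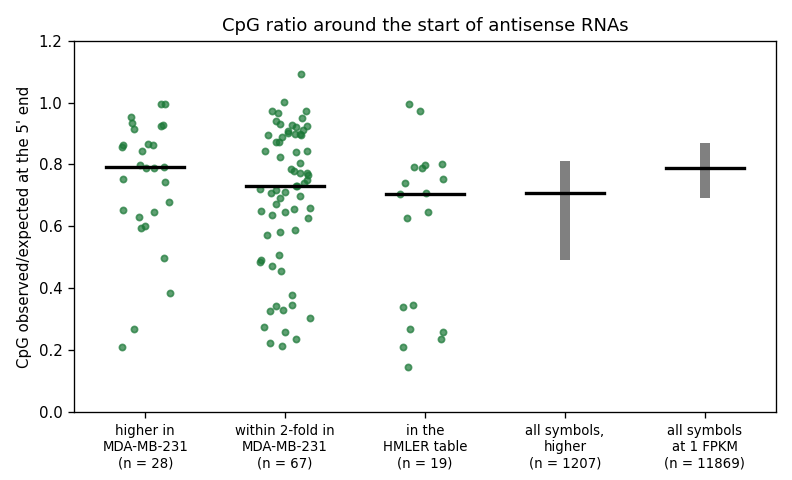
CpG observed/expected ratio within 500 bases of the annotated 5′ end (vertical axis). Points are single antisense RNAs and black bars medians. For all symbols the grey bar spans the quartiles. The medians are 0.79, 0.73 and 0.71 for the antisense groups, 0.71 for all higher symbols and 0.79 for all symbols at 1 FPKM.

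Other noncoding RNAs, taken by symbol, give a frame for these shares. Of 35 LINC symbols at 1 FPKM, 7 (20.0%) were higher and 2 lower, and of the 25 with a mean under 5 FPKM 7 (28%) were higher. Of 7 symbols ending in HG, 1 was higher, MIR497HG with 0.716 and 2.68 FPKM. The 4 symbols ending in OT1 (CNOT1, GOT1, POT1 and RHOT1) are protein-coding genes, of which RHOT1 was lower, and no symbol ending in -IT and a digit reached 1 FPKM. Of 36 antisense RNAs known from the literature, 23 were in the MDA-MB-231 file and 7 reached 1 FPKM, among which FOXD2-AS1 was higher and none was lower. ZFAS1 was at 168 and 87.6 FPKM. HOTAIRM1, of the HOXA cluster, was listed at 0 untreated and at 0.843 FPKM after DAC, under the minimum. HOXB-AS3 and KCNQ1OT1 were the 2 in the HMLER table.

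The rule has a threshold of 1 FPKM. Just inside it were NDUFB2-AS1 (0.373 and 1.01 FPKM), JMJD1C-AS1 (0.268 and 1.07), IDH1-AS1 (1.06 and 1.07) and PITRM1-AS1 (1.07 and 0.970). Just outside were CACTIN-AS1 (0.976 and 0.868 FPKM), ZNF503-AS2 (0.265 and 0.973), ST7-AS1 (0.457 and 0.963) and TMEM254-AS1 (0.203 and 0.961). Of the 318 antisense symbols under the minimum, the DAC value was higher in 113 and lower in 42 of those above 0 in both libraries. Another 33 were listed at 0 untreated only and 9 after DAC only. Shares over all symbols under the minimum were not computed, so these counts are not read as particular to antisense RNAs. Among all symbols that reached 1 FPKM with a mean under 5 FPKM, the DAC value was the higher one in 63.8%.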

How the data were processed

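RNA was sequenced in 6 libraries of MDA-MB-231 and HMLER cells. Per the labels and the study's methods, the authors aligned reads to hg19 with TopHat2 and ran Cuffdiff on Galaxy, which gave the deposited FPKM of each RefSeq transcript (versions not given in the sources used here). Samples were grouped by GEO's labels. For HMLER the deposited table has 1 FPKM per condition, merged over 2 libraries. Its columns of the authors' own fold changes, p-values and q-values were not used. The other deposited columns used are the authors' lower and upper FPKM bounds and the transcript length in bases. No column with values of a sample was left out.

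FPKM were summed over the transcripts of a symbol, and a symbol was kept when either MDA-MB-231 library reached 1 FPKM. A symbol was called higher or lower when its DAC/untreated ratio was past 2-fold, without a pseudocount. For log2 changes 1 FPKM was added to each value, so that low symbols show too small a change. With 1 value per condition no test was run. Only the calls past 2-fold were tested on simulated data, for symbols at 1 FPKM or more in the untreated library. The annotation, CpG and fragment steps were not. Fragments were estimated from the low values of transcripts over 2000 bases, with 240 bases subtracted from the length.

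Positions and exon overlap came from GENCODE 44 lifted to GRCh37, where 104 of the 108 members were placed, and names from RefSeq, where 106 were found. The CpG ratio is the number of CG times the window length, divided by the product of C and G. Members, gene lists and alternatives were chosen with earlier results of these data known. Named are the HMLER members, the 12 largest rises and the falls, the 10 highest levels (1 of which is not reported here) and pairs past 2-fold together, besides which pairs with only the sense gene past 2-fold, members around the threshold, and examples of high exon overlap were named after their values were seen. Lists printed are the known antisense RNAs, other noncoding classes and cell line markers. Alternatives were other filters, pseudocounts, division by the median ratio, the largest transcript, no exon overlap and bounds that lie apart. Python 3.11.15, numpy 2.4.6, pandas 2.3.3, pysam 0.24.0 and matplotlib 3.10.9 were used.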

Additional observations from a re-analysis of the deposited data

Results flagged for a closer look

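Some antisense RNAs and sense genes that the HMLER table lists as higher after DAC had a lower DAC than untreated value in MDA-MB-231, and this difference between the lines was not tested. The HMLER libraries are merged, so whether both of them moved the same way cannot be seen, and each MDA-MB-231 condition is a single library. The DAC/untreated ratio in MDA-MB-231 was 0.704 for UGDH-AS1, which rests on about 20 and 14 fragments there, 0.713 for FOXN3-AS1, 0.848 for MORC2-AS1 and 0.950 for ATP6V0E2-AS1. Among the sense genes it was 0.342 for SOCS2, 0.479 for FOXN3, 0.630 for PROSER2, 0.936 for MYLK and 0.977 for BAIAP2. Of these 9, SOCS2 and FOXN3 were past 2-fold in MDA-MB-231. Groups of fewer than 4 samples were not searched for samples that stand apart.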

How the results depend on the processing

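The median log2 change of the antisense RNAs stayed above 0 under each alternative tried for it, while the counts moved. Of the 101 antisense RNAs, 28 were higher and 2 lower, and the counts of pairs were 5 (both higher), 2 (both lower) and 16 (antisense alone higher). With any value above 0 in both libraries these 5 numbers were 88, 12, 14, 4 and 62 of 255 antisense RNAs, and the median log2 change was 0.11 in place of 0.24. With 1 FPKM in both libraries they were 10, 1, 0, 1 and 6, the median was 0.16, 3 antisense RNAs in place of 6 were higher in both lines, and 9 in place of 19 were in the HMLER table. With 2 FPKM in at least 1 library, 18 were higher and 1 lower, and 2 pairs were higher and 1 lower together. With 1 FPKM added to each value, 9 were higher and 0 lower, with 1 pair higher and 0 lower together and 5 antisense RNAs higher alone. Without exon overlap, 34 antisense RNAs remained for the count, of which 11 were higher and 0 lower, with 0 pairs lower together, 5 higher alone and 2 higher in both lines. With bounds that lie apart, 0 antisense RNAs and 0 pairs were past 2-fold in either direction. With the largest transcript, 1 pair was lower together. These filters keep fewer or more symbols by construction, and for the pseudocount and the bounds the cause was not tested. The other 22 values stayed within 1.5 times. No paired analysis was possible because each condition of either line has a single value and no test was made. Depth limits the low values most: 4 of the 28 had fewer than 10 fragments in the untreated library. Strand, and what was steady, fell or stayed under about 1 FPKM after DAC in HMLER, could not be seen.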
